A study of Mus musculus with 18 samples.

Results

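Lysosomes break down protein, fat and sugar polymers inside cells, and the 39 genes followed here encode the proteases that do the cutting, the pump that keeps the organelle acid, and a set of other lysosomal proteins. The members were taken by gene name, and all 39 were present in each of the 5 deposited tables of a mouse glioma series, which together hold 50974 gene names. They comprise 9 cysteine cathepsins (Ctsb, Ctsc, Ctsf, Ctsh, Ctsk, Ctsl, Ctso, Ctss, Ctsz), 3 other proteases (Ctsa, Ctsd, Lgmn) and 15 proteins of the vacuolar proton pump. The remaining members are 5 proteins found in the lysosomal membrane (Lamp1, Lamp2, Cd68, Cd63, Mcoln1), 4 glycosidases (Gla, Glb1, Gusb, Hexa), the 2 secreted and lysosomal proteins Grn and Psap, and the transcription factor Tfeb. Of the pump proteins, 5 belong to the membrane sector V0 (Atp6v0a1, Atp6v0b, Atp6v0c, Atp6v0d1, Atp6v0e), 8 to the cytosolic sector V1 (Atp6v1a, Atp6v1b2, Atp6v1c1, Atp6v1d, Atp6v1e1, Atp6v1f, Atp6v1g1, Atp6v1h) and 2 are accessory proteins (Atp6ap1, Atp6ap2).

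The 18 libraries came from gliomas of Boy/J mice or from cells taken from them; the sources used here give no ages. In the first bulk comparison, tumours driven by Ras were taken from 4 mice gavaged daily with 100 mg/kg PLX3397, an inhibitor of the macrophage growth factor receptor CSF1R, and from 4 mice gavaged with vehicle, from 7 days after implantation until moribund; the vehicle libraries also carry the label untreated. In the second, CD11b-positive cells were pulled with magnetic beads from PDGFB-driven tumours of 2 mice given PLX3397 at the same daily dose for 3 days from day 14, and of 1 mouse given vehicle. The third set 2 cell lines grown from Ras tumours against 3 lines grown from PDGF tumours, all untreated. Ras lines grew with EGF and FGF, and PDGF lines in another medium that also held PDGFBB and PDGFAA, each factor at 20 ng/mL, so that medium and driver cannot be told apart. Single cells were profiled from untreated glioma whose drivers were HRasV12 and a dominant negative p53, in 1 library by 10x Chromium and 1 by Drop-seq.

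The pump uses ATP hydrolysis in its V1 sector to drive protons through its V0 sector, and nearly every animal cell needs it. Cathepsins are made as inactive precursors that mature in the acid lumen, and professional phagocytes such as macrophages and microglia carry large amounts of them to digest what they engulf. TFEB switches on many lysosomal genes by binding a short palindrome, often called the CLEAR element, near their start sites. CSF1R signalling keeps most macrophages and microglia alive, which is why its inhibitors are used to deplete them.

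Promoter sequences are shown first. The palindrome is known from lysosomal genes, the class from which the members were chosen. Its share among them is therefore a description and no independent support. RefSeq promoters on GRCm38.p6, each running from 250 bases before to 50 bases after a transcript start, could be matched for 33 of the 39 members; Ctsb, Ctsh, Atp6v1b2, Atp6v1c1, Atp6v1g1 and Atp6v1h had no entry in the table used. The core CACGTG, which reads the same on both strands, occurred in 13 of these 33 (39.4%), against 2187 of 27018 genes in the whole table (8.09%). Its longer form TCACGTGA, also a palindrome and containing the core, occurred in 7 members (21.2%) and in 304 of all genes (1.13%). The windows below hold each member with the longer form, plus Lamp1, which holds 4 copies of the core; capitals mark the motif, and sequence runs 5′ to 3′ on the strand of the gene.
Ctsa, chr2:164833746-164833798, plus strand: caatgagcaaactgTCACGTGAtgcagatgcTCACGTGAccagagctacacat
Ctsd, chr7:142387905-142387940, minus strand: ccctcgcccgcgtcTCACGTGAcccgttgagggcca
Atp6v0d1, chr8:105566047-105566082, minus strand: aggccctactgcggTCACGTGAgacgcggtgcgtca
Atp6v0e, chr17:26676384-26676419, plus strand: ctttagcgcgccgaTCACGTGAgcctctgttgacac
Atp6v1a, chr16:44139370-44139405, minus strand: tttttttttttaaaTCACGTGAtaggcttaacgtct
Lamp1, chr8:13159086-13159165, plus strand: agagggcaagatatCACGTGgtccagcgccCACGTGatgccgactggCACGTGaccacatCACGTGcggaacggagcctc
Mcoln1, chr8:3500459-3500494, plus strand: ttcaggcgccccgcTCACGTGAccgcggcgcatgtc
Gla, chrX:134601179-134601247, minus strand: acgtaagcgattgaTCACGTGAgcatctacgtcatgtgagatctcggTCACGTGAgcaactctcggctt

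Both a protease such as Ctsd and pump subunits such as Atp6v0d1 and Atp6v1a held the longer form. Ctsa, the serine carboxypeptidase that shields beta-galactosidase and neuraminidase, had 2 copies that span the start site, and Gla, the alpha-galactosidase missing in Fabry disease, had 2 copies further upstream. Ctsf, Ctsl, Lgmn, Atp6v0b and Glb1 held the core alone. A match is a string of letters in a fixed window and was not tested as a binding site.

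Total counts were 31262200 to 35905400 in the Ras tumours, 26777200 to 30874800 in the CD11b-positive cells and 32000700 to 35910700 in the lines. No member was near the detection limit in the tumours, where the lowest value of any was 5.57 CPM (counts scaled to 1000000 per library, with library sizes adjusted by the TMM method), seen for Ctsf in vehicle tumour 4. A list of 11 pan-myeloid markers (among them Csf1r, C1qa and Itgam) was detected in full in every tumour and CD11b library. Its summed level was 11121 and 14055 CPM in the PLX3397 cells and 13513 CPM in the vehicle cells of the CD11b set. In the lines it came to 0.18 to 2.33 CPM in 4 libraries and to 208 CPM, with all 11 markers detected, in PDGF line 3. Nothing in the labels says that lines of a group came from separate tumours, so p-values for them measure only the spread between these libraries.

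Single cells from untreated Ras tumours showed where the members are read out. After filtering, the 10x library kept 3320 of 4384 barcodes with a median of 8351 unique molecular identifiers (UMIs) each, and Drop-seq kept 4901 of 5000 with a median of 1396; the libraries shared 0 barcodes. Cells were clustered without the members or any other lysosomal gene on the lists. Clusters with at least 8 of the 11 pan-myeloid markers were taken as macrophage clusters and those with at least 6 of 10 markers of neural tumour cells as neural clusters, by rules set after the clusters had been seen. In 10x this gave 539 macrophage cells (16.2%), 1604 neural cells (48.3%) and 1177 in neither class. Levels are UMIs of a gene per 1000000 UMIs summed over a class, with exact Poisson 95% intervals that cover counting error only, since each method has 1 library and no test between classes is possible.

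Most proteases (8 of 12) were at least 4 times as high in the macrophages, and no pump protein was. Of the 39 members, 14 had a level at least 4 times as high in macrophage as in neural clusters, and none of these 14 was among the 15 pump proteins. The share of all genes that reach this ratio was not computed in either library, so such counts have no background beside them. Ctss, which trims the invariant chain of MHC class II, reached 4141 (4091 to 4191) in macrophage clusters and 19.4 (18.1 to 20.8) in neural clusters, a ratio of 213. Cd68, the macrophage sialomucin macrosialin, stood at 476 (460 to 493) in macrophage and 4.72 (4.09 to 5.43) in neural clusters. For scale, the summed pan-myeloid markers in neural clusters came to 0.530% of their level in macrophage clusters, with single markers between 0.464% and 0.684%. Ctss, at 0.469%, lay in that range. Whether its neural value is free or mixed-in RNA was not tested.

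Among the cysteine cathepsins the range ran from strongly macrophage-borne to evenly spread. Ctsh, an aminopeptidase, had 883 in macrophage against 14.8 in neural clusters, a ratio of 59.7. Ctsc, the dipeptidyl peptidase that activates granule serine proteases, had 1571 against 32.1, and Ctsz, a carboxypeptidase, 1801 against 60.8. Each of these 3 neural values exceeded the share given by the pan-myeloid markers. Ctsb, an abundant endopeptidase, had 2111 in macrophage and 188 in neural clusters, a ratio of 11.2, so that neural clusters still contributed 31.2% of its UMIs. Ctsl, its close relative, fell just outside the enriched set at a ratio of 3.1, with 1028 in macrophage and 332 in neural clusters. Neural clusters held 51.0% of its UMIs, and cells in neither class 24.3%. Ctsf was the 1 cysteine cathepsin with a ratio below 1, at 28.3 (24.4 to 32.7) in macrophage and 31.2 (29.6 to 33.0) in neural clusters, with overlapping intervals. Ctsk, known for digesting bone collagen in osteoclasts, was nearly absent from both classes, and 88.9% of its 208 UMIs lay outside them; 175 of those were in a cluster of 49 cells that mixes endothelial and fibroblast markers.

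The 3 other proteases were all enriched. Ctsd, the main aspartic protease of the lysosome, had 3348 in macrophage against 219 in neural clusters, a ratio of 15.3, and Lgmn, the asparaginyl endopeptidase, had 1566 against 77.2. Ctsa had 485 against 43.9, a ratio of 11. Grn, which encodes progranulin, had a ratio of 14.2, and Psap, the precursor of the saposins that assist sphingolipid hydrolases, one of 6.53 while remaining high in both classes, at 2073 in macrophage and 318 in neural clusters. Of the glycosidases, Gla (ratio 5.88), Gusb (5.36) and Hexa (4.08, just inside the threshold) were enriched, and Glb1 (2.61) was not.

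By contrast the pump ratios ran from 0.52 for Atp6v1h, the regulatory subunit of V1, to 2.98 for Atp6v0c, the proteolipid of the proton-carrying ring, with a median of 1.37. Atp6v1a, the catalytic subunit, had 115 (107 to 124) in macrophage and 106 (103 to 110) in neural clusters. Atp6v0b, another ring proteolipid, had 364 and 314 in the same order of classes. Atp6v1h had 46.2 in macrophage and 88.8 in neural clusters. Atp6v0c rests on only 159 UMIs in all kept cells, although it averaged 244 CPM in PLX3397 and 272 CPM in vehicle tumours by bulk sequencing, and its ratio is accordingly loose (2.07 to 4.30). Among membrane proteins, Cd63, a tetraspanin of late endosomes, had 1498 in macrophage and 1398 in neural clusters, a ratio of 1.07, whereas Lamp1 and Lamp2, the bulk glycoproteins of the lysosomal membrane, had ratios of 2.42 and 2.49. Mcoln1, the cation channel TRPML1, had 1.06 and Tfeb 2.86.

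**Figure D1:**
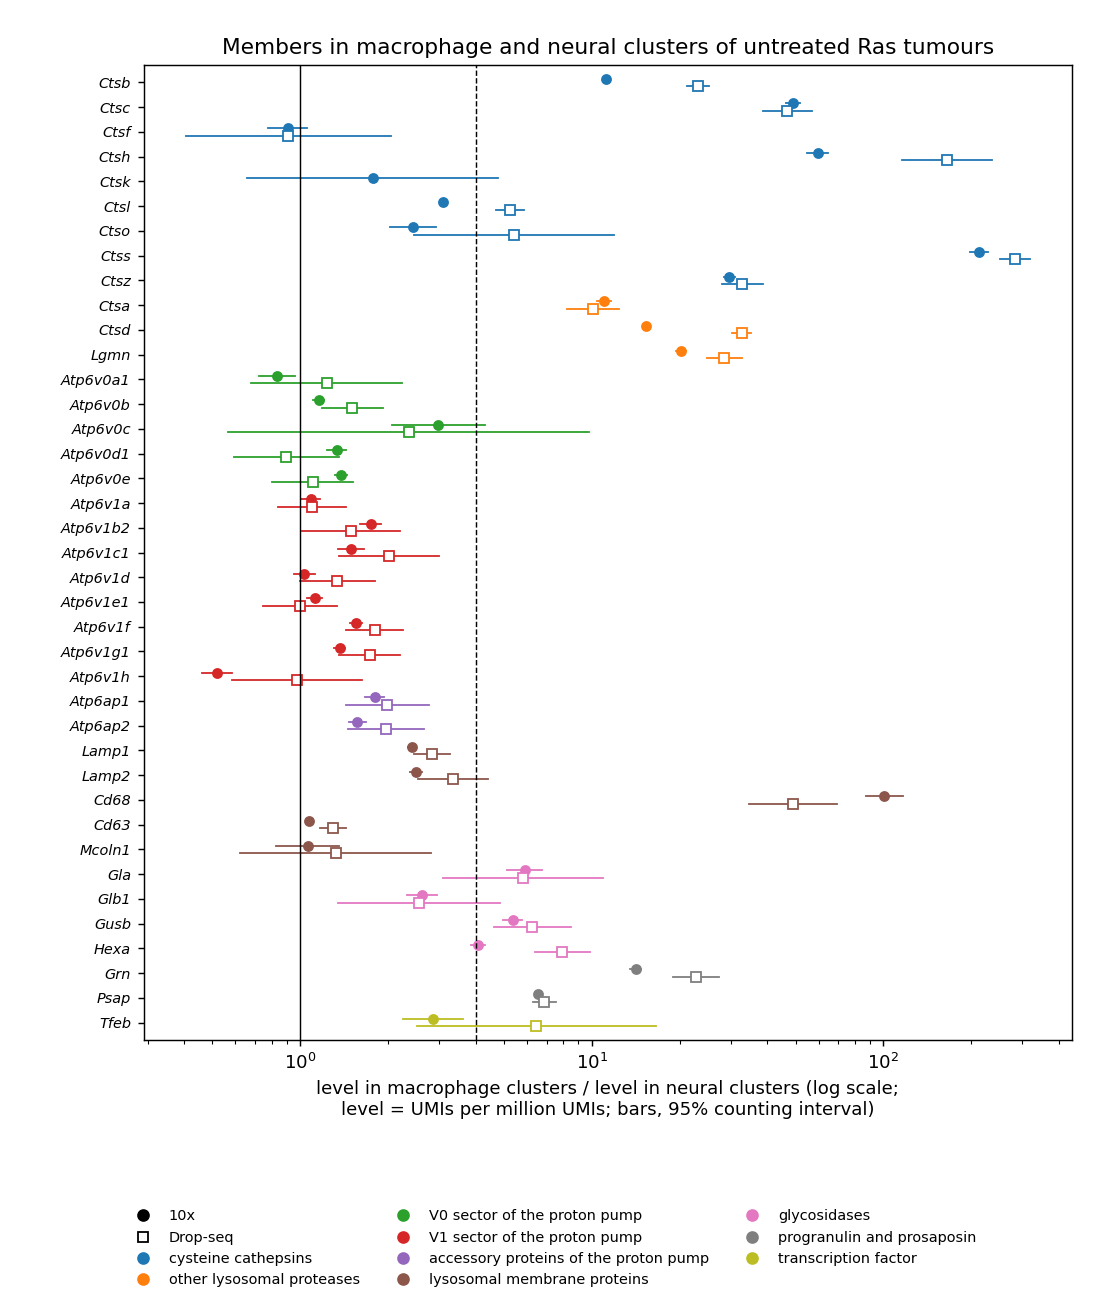
Ratio of each member's level (UMIs per 1000000 UMIs) in macrophage clusters to that in neural clusters on a log axis, for 10x (filled circles) and Drop-seq (open squares), coloured by role, with 95% counting intervals; the dashed line marks a ratio of 4 and the solid line a ratio of 1. The points of all 15 pump proteins lie left of the dashed line in both methods, though the intervals of Atp6v0c cross it. Ctss, Cd68, Ctsh, Ctsc and Ctsz lie far to the right. Ctsk has no Drop-seq point because it had no macrophage UMI there.

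Drop-seq, a separate library with 176 macrophage and 4623 neural cells, gave 17 members at or above a ratio of 4, which held all 14 from 10x and added Ctsl, Ctso and Tfeb. In Drop-seq Ctso rested on 7 macrophage UMIs (ratio 5.39, 2.45 to 11.9) and Tfeb on 5 (6.46, 2.51 to 16.6). Both intervals reach below 4. No pump protein reached 4 there either, and the median pump ratio was 1.49. Atp6v0c rested on 2 macrophage UMIs in Drop-seq (ratio 2.36, 0.566 to 9.81), an interval that reaches past 4. Across the 39 members the rank correlation of the ratios between the methods was 0.934 (Spearman, a description over genes that are not independent). Counted as a share of UMIs over all kept 10x cells, macrophage clusters held 11.9% of all UMIs but 96.2% of Ctss, 87.4% of Cd68, 84.2% of Ctsh, 82.0% of Ctsc, 73.5% of Ctsz, 70.8% of Lgmn and 64.5% of Ctsd. For the pump that share ran from 6.75% for Atp6v1h to 26.4% for Atp6v0c.

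Within the 10x macrophages, the 420 cells of a microglia-like cluster carried more of most proteases than the 119 cells of a cluster like monocyte-derived macrophages. The microglia-like cluster passed 8 of 10 microglia markers and 5 of 10 markers of monocyte-derived macrophages. The other cluster passed 2 and 8 in the same order. Counting intervals lay apart with the microglia-like level higher for 23 of 39 members, apart with the monocyte-derived level higher for 3, and overlapped for 13. The share of all genes with intervals apart was not computed. Ctsd stood at 4061 in microglia-like and 610 in monocyte-derived cells, Lgmn at 1851 and 472 in the same order, and Cd63 at 1789 and 384. Ctsb had 2449 in microglia-like and 811 in monocyte-derived cells. Ctss differed less, with 4565 in microglia-like and 2514 in monocyte-derived cells, as did Ctsc with 1692 and 1106. Ctsf had 35.7 in microglia-like cells and 0 UMIs in monocyte-derived ones, which allows a level of up to 2.75. Tfeb went the other way, at 12.2 (9.39 to 15.6) in microglia-like and 26.8 (18.8 to 37.1) in monocyte-derived cells, together with Atp6v0e and Atp6v1e1. Of the 12 proteases 10 were higher in the microglia-like cluster, whereas only 5 of 15 pump proteins had intervals that lay apart in either direction. In Drop-seq the macrophage cluster mixed both marker sets and could not be split.

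Neural clusters also differed among themselves. A cluster of 338 cells led by Lcn2, Crispld2 and Scg2 had the highest level of the 4 neural clusters for 29 of 39 members, with Ctsl at 768 there against 174 to 322 in the other 3, Ctsd at 426 against 116 to 200 and Ctsb at 347 against 105 to 179. Pump levels varied less over these clusters, for example 276 to 329 for Atp6v0b. The Lcn2-led cluster also had the highest summed pan-myeloid level of the 4, at 213 against 57.2, 69.1 and 207. Its median of 6999.5 UMIs was the lowest, against 19996.5 to 28971.5. Whether mixed-in RNA has a part in its member levels was not tested. Outside both classes, 147 cells led by Nppb, Nefl and Klk7 had 2068 for Ctsl and 2625 for Cd63, above the macrophage clusters for both genes. That cluster held 5 of the 10 neural tumour markers, where the rule asked for 6, and no pan-myeloid marker. Its cells therefore do not enter the neural levels, ratios or shares. In 84 neutrophil-like cells Gla reached 243, against 61.1 in macrophage clusters, and Ctss 175.

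Bulk levels per kilobase of merged exon give the ranking of the members against each other. In PLX3397 Ras tumours Psap (572 ± 112 CPM per kilobase), Ctsd (365 ± 120), Lamp1 (201 ± 18.8) and Ctss (176 ± 102) were highest (SD, n = 4). In vehicle Ras tumours the top 3 were Psap at 630 ± 66.8, Ctsd at 410 ± 49.4 and Ctss at 371 ± 119 CPM per kilobase (SD, n = 4). Tfeb was lowest in both, at 1.78 ± 0.70 under PLX3397 and 2.40 ± 0.33 under vehicle. Psap, Ctsd and Ctss also led the CD11b-positive cells, with Psap at 2649 ± 596 (SD, n = 2), Ctsd at 2560 ± 619 and Ctss at 2162 ± 496 CPM per kilobase under PLX3397, and 1771, 1538 and 2065 in the 1 vehicle library. In the lines Psap led as well, at 400 ± 200 (SD, n = 2) in Ras lines and 295 ± 40.5 (SD, n = 3) in PDGF lines, but Ctss was among the lowest, at 0.04 ± 0.06 and 4.86 ± 8.16. Levels of different tables stand side by side here without a test. Part of the Ctsd exon length (34.4%) is shared with the annotated gene Gm49369 and part of Ctsl (26.8%) with Gm47123, and how reads there were assigned is not given in the sources used here.

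The comparison of whole Ras tumours addressed what PLX3397 does to the members when all cells of the tumour are read together. With edgeR's quasi-likelihood test and Benjamini-Hochberg adjustment over 18366 genes, 0 of 39 members and 0 genes in all (0%) passed an adjusted p of 0.05. An unadjusted p under 0.05 was seen for 6 of 39 members and 648 genes (3.53%). DESeq2 called 2 of 39 members (Ctsk and Gusb) and 169 of the 18366 genes. Descriptively, 28 of 39 members had a log2 fold below 0, with a median of -0.10 against 0.00 over all genes tested. With 1 library left out, that count ran from 21 (without vehicle tumour 1) to 33 (without PLX3397 tumour 1). Values in PLX3397 tumours lay below every vehicle tumour for 3 members (Gusb, Ctsc, Cd68), where 2.09% of all genes did so, and above every vehicle tumour for 0 members, where 0.446% of all genes did. The pan-myeloid markers summed to 1454, 1172, 301 and 469 CPM in PLX3397 tumours 1 to 4 and to 3062, 2132, 2024 and 1491 CPM in vehicle tumours 1 to 4, without overlap. In bulk samples, fewer cells of a type and less RNA per cell cannot be told apart.

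Gusb, the beta-glucuronidase, had the smallest p of any member. It measured 63.6, 74.9, 52.6 and 51.0 CPM in PLX3397 tumours 1 to 4, against 120, 84.7, 102 and 114 CPM in vehicle tumours 1 to 4. Every PLX3397 tumour was lower than every vehicle tumour, with a log2 fold of -0.80 ± 0.17 (SE; edgeR adjusted p = 0.415, and 0.0141 to 1.00 over the alternatives, lowest by DESeq2).

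Ctsc had 258, 217, 98.6 and 137 CPM in PLX3397 tumours and 642, 266, 393 and 389 CPM in vehicle tumours. The groups did not overlap, though PLX3397 tumour 1 and vehicle tumour 2 were close, and the log2 fold was -1.25 ± 0.36 (edgeR adjusted p = 0.769). Cd68 measured 88.1, 94.3, 32.4 and 43.1 CPM in PLX3397 tumours, against 167, 96.6, 105 and 101 CPM in vehicle tumours. PLX3397 tumours 3 and 4, which also had the lowest pan-myeloid sums, held the lowest values of Cd68, and the log2 fold was -0.86 ± 0.37 (edgeR adjusted p = 1.00).

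Ctss had 372, 339, 81.4 and 165 CPM in PLX3397 tumours and 725, 457, 495 and 339 CPM in vehicle tumours. Vehicle tumour 4 lay within the PLX3397 values, and the log2 fold was -1.07 ± 0.47 (edgeR adjusted p = 1.00). Ctsz had 239, 178, 92.1 and 97.2 CPM in PLX3397 tumours, against 358, 207, 238 and 246 CPM in vehicle tumours, with a log2 fold of -0.79 ± 0.34. Hexa, the alpha subunit of beta-hexosaminidase A, had 117, 142, 82.7 and 74.8 CPM in PLX3397 tumours and 183, 125, 137 and 155 CPM in vehicle tumours, with a log2 fold of -0.53 ± 0.23. For Ctsa the values were 263, 328, 187 and 196 CPM in PLX3397 tumours and 414, 331, 282 and 265 CPM in vehicle tumours, a log2 fold of -0.41 ± 0.22. All 3 genes overlapped between the groups, with an edgeR adjusted p of 1.00 each.

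Ctsk stood apart from the rest because 2 vehicle tumours decided its value. It measured 7.70, 13.1, 9.20 and 9.08 CPM in PLX3397 tumours, and 12.6, 9.54, 111 and 293 CPM in vehicle tumours 1 to 4. Its log2 fold was -3.44 ± 1.05 (edgeR adjusted p = 0.791, and 0.0185 to 1.00 over the alternatives, lowest by DESeq2) with all libraries and -0.18 without vehicle tumours 3 and 4. Those 2 libraries also had summed neutrophil marker levels of 265 and 576 CPM, against 28.0 to 67.4 CPM in the other 6 tumours, although S100a8 itself was at 4.86 and 1.99 CPM there. Acp5, a phosphatase abundant in osteoclasts and macrophages and not a member, was highest in the same libraries, at 20.9, 36.7, 11.1 and 13.3 CPM in PLX3397 tumours and 95.5, 53.4, 174 and 377 CPM in vehicle tumours. The neutrophil markers did not move together: of the 8 tested, 5 had a log2 fold below 0 and 3 above, from -3.65 to 0.79. Mmp9, on that list, was also a leading gene of the 10x cluster that held most Ctsk UMIs. Whether the neutrophil markers have a part in the Ctsk value was not tested.

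**Figure D2:**
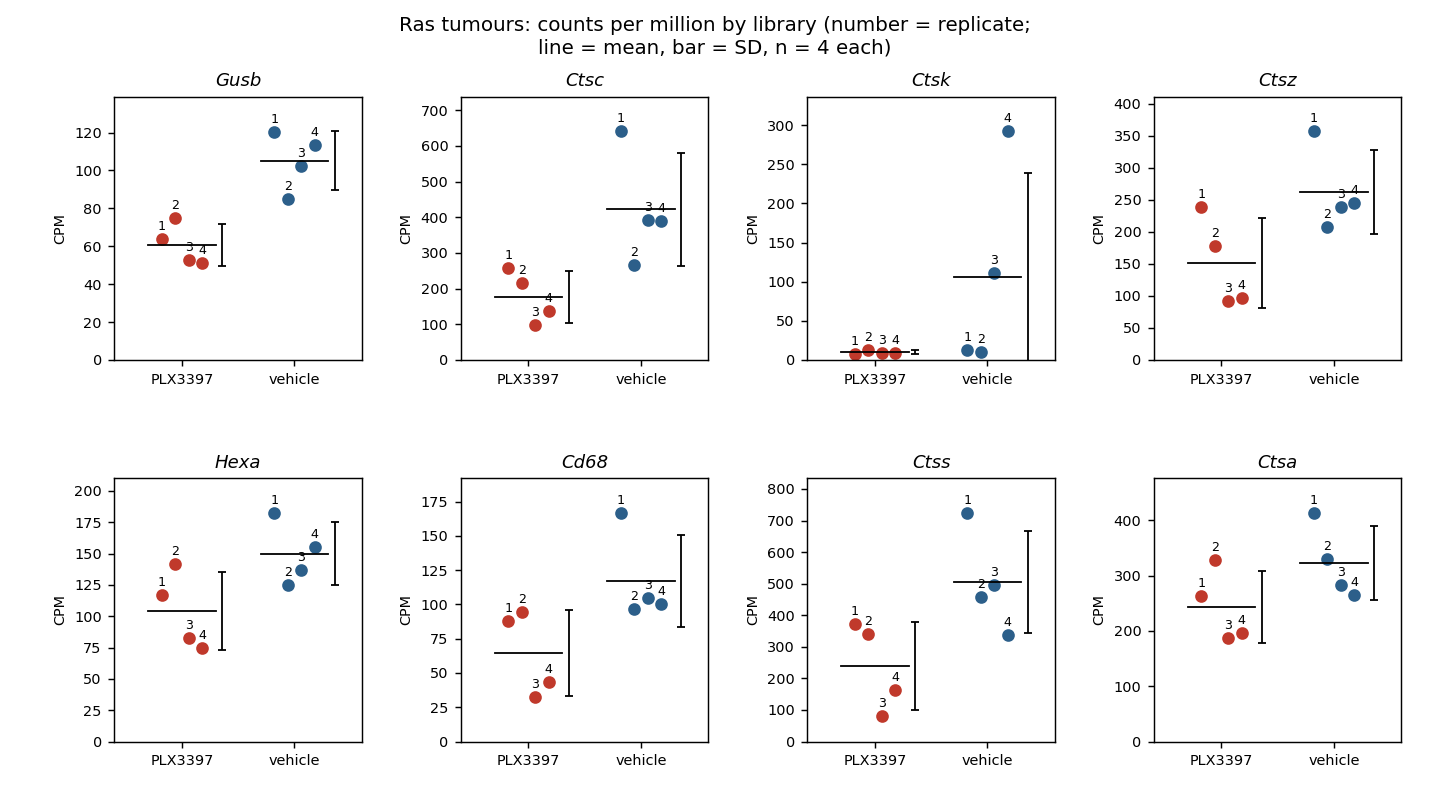
CPM of the 8 members with the smallest p in Ras tumours, PLX3397 left and vehicle right; points are libraries with their replicate number, lines means and bars SD (n = 4 each; bars cut at 0). Gusb, Ctsc and Cd68 show no overlap, and Ctsk is high in vehicle tumours 3 and 4 alone.

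Grouped by role, 7 of 9 cysteine cathepsins and all 3 other proteases had a log2 fold below 0, the cathepsins with a median of -0.52. The 15 pump proteins were split into 8 below and 7 above 0, with a median of -0.01 and a range from -0.30 to 0.22. Atp6v0a1, the large V0 subunit with the proton half-channels, followed neither group label: it had 277, 129, 87.7 and 91.1 CPM in PLX3397 tumours and 87.8, 223, 144 and 47.4 CPM in vehicle tumours. Its highest values were in PLX3397 tumour 1 and vehicle tumour 2, the 2 libraries with the highest summed neuron markers (3315 and 3304 CPM, against 320 to 1684 CPM in the other 6). Ctsf had its highest values in the same 2 libraries, at 46.7 CPM in PLX3397 tumour 1 and 31.6 CPM in vehicle tumour 2.

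The bulk tumours were also divided by the single-cell ratios. Of the 14 members enriched in 10x macrophages, 13 had a log2 fold below 0, with a median of -0.52, and all 3 non-overlapping members and 5 of the 6 with an unadjusted p under 0.05 were among them. Of the other 25 members, 15 were below 0, with a median of -0.02, and the 1 with an unadjusted p under 0.05 was Ctsk. This division was made on libraries that the bulk comparison did not use. The median over all 39 members ranged from -0.23 without PLX3397 tumour 1 to -0.01 without vehicle tumour 1.

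The CD11b-positive cells of PDGFB tumours showed the members in the enriched macrophages after 3 days of PLX3397. With edgeR and Benjamini-Hochberg adjustment over 15052 genes, 956 genes (6.35%) passed and 0 of 39 members did. An unadjusted p under 0.05 was seen for 3 of 39 members and 4415 genes (29.3%), a smaller share for the members. DESeq2 called 4 of 39 members (Ctsb, Ctsc, Ctsd, Cd63) and 1968 of the 15052 genes, so its member count did not exceed the share of all genes. Only 1 degree of freedom was left for the spread, which came from the PLX3397 pair, and the same spread was taken to hold for the single vehicle library. Both PLX3397 libraries lay above the vehicle library for 17 members, where 41.6% of all genes did so, and below it for 9 members, where 42% did, so that the count above is near its background share and the count below is under it. The median log2 fold was 0.13 over the members and 0.01 over all genes tested, with 27 members above 0.

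Ctsc was the member nearest to the threshold. It measured 825 and 906 CPM in PLX3397 cells and 1919 CPM in vehicle cells. The PLX3397 libraries lay close together, at under 0.5 of the vehicle value, with a log2 fold of -1.15 ± 0.21 (edgeR adjusted p = 0.0517, and 1.62e-05 to 0.0517 over the alternatives with a test, lowest by DESeq2). Cd63 had 914 and 718 CPM in PLX3397 cells and 461 CPM in vehicle cells, a log2 fold of 0.82 ± 0.24 (edgeR adjusted p = 0.11). Gla had 195 and 158 CPM in PLX3397 cells and 113 CPM in vehicle cells, with 0.65 ± 0.20 (edgeR adjusted p = 0.115). Cd68 measured 1214 and 868 CPM under PLX3397 and 657 CPM under vehicle, with 0.66 ± 0.29 (edgeR adjusted p = 0.206).

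The most abundant proteases pointed upward in these cells but spread widely between the PLX3397 libraries. Ctsd had 7048 and 4990 CPM in PLX3397 cells and 3616 CPM in vehicle cells, a log2 fold of 0.73 ± 0.37 (edgeR adjusted p = 0.261). Ctsb had 7732 and 5134 CPM in PLX3397 cells and 3759 CPM in vehicle cells, with 0.78 ± 0.40 (edgeR adjusted p = 0.268). Ctsl was tighter, at 922 and 851 CPM in PLX3397 cells and 648 CPM in vehicle cells, with 0.45 ± 0.21 (edgeR adjusted p = 0.224). PLX3397 library 1 was the higher of the pair for each of these 3 genes. Ctss, which separates macrophages from neural cells most sharply, had 3412 and 2459 CPM in PLX3397 cells, on either side of the 2804 CPM in vehicle cells.

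Pump proteins again stayed near 0, with 8 above and 7 below, a median of 0.02 and a range from -0.31 to 0.20. The lowest of them was Atp6ap2, the prorenin receptor, with 205 and 190 CPM in PLX3397 cells and 245 CPM in vehicle cells, a log2 fold of -0.31 ± 0.16 (edgeR adjusted p = 0.264). The median over all members was -0.04 with PLX3397 library 1 left out and 0.26 with library 2 left out, both as values of 1 library against 1 with no test. Beside these values, summed astrocyte markers were 669 and 627 CPM in PLX3397 cells and 107 CPM in vehicle cells, neural tumour markers 537 and 931 against 177 CPM, dividing-cell markers 233 and 349 against 1141 CPM, and microglia markers 2021 and 1560 against 2449 CPM. Fibroblast markers summed to 599.5 and 1065 CPM in PLX3397 cells and 159 CPM in vehicle cells, endothelial markers to 330.4 and 581 against 241 CPM, and pericyte markers to 102 and 159 against 41.6 CPM. Neutrophil markers summed to 604 and 1063 CPM in PLX3397 cells and 769.9 CPM in vehicle cells, while 8 of the 10 were higher in both PLX3397 libraries, with a median log2 fold of 1.30. The part of these cell types in the members' values, among them that of Gla with its high level in neutrophil-like cells, was not tested.

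**Figure D3:**
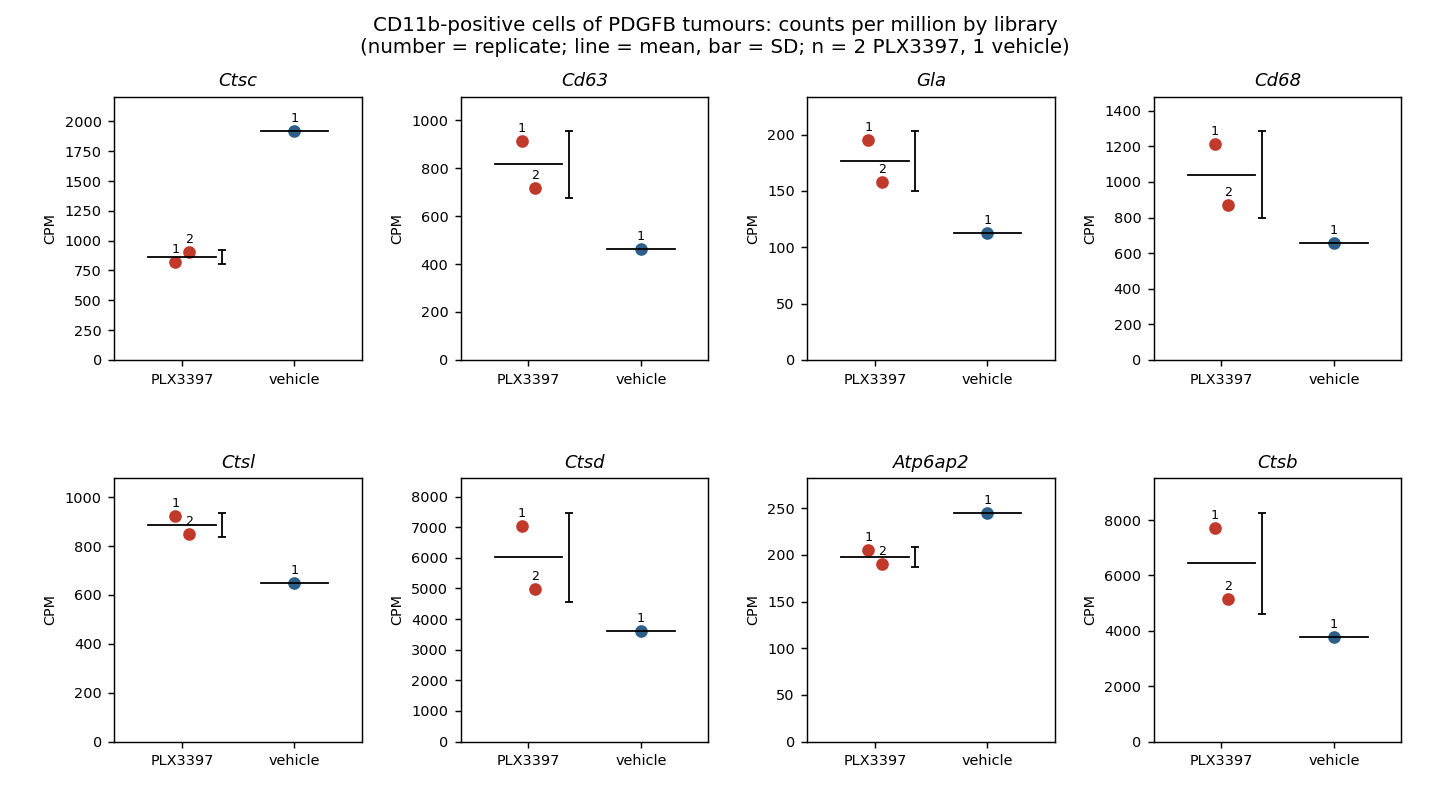
CPM of the 8 members with the smallest p in CD11b-positive cells of PDGFB tumours, PLX3397 (n = 2) left and vehicle (n = 1) right; points are libraries with their replicate number, lines means and bars SD. Ctsc and Atp6ap2 lie below the vehicle value in both PLX3397 libraries and the other 6 above it.

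The lines showed the members in cultured tumour cells. With edgeR and Benjamini-Hochberg adjustment over 17475 genes, 0 of the 38 members tested and 0 genes in all (0%) passed. An unadjusted p under 0.05 was seen for 8 of 38 members and 2842 genes (16.3%). DESeq2 called 3 of 38 members (Atp6v0a1, Atp6v0d1, Atp6v1f) and 2110 of the 17475 genes, so its member count did not exceed the share of all genes. Ctss failed the filter on low counts, with 0.12 and 0 CPM in Ras lines and 0.17, 0.24 and 19.4 CPM in PDGF lines 1 to 3; the 19.4 CPM was in PDGF line 3, the library with 208 CPM of pan-myeloid markers. Cd68 was likewise highest there, with 9.41 and 4.31 CPM in Ras lines and 4.53, 4.21 and 29.4 CPM in PDGF lines. Both Ras lines lay above all PDGF lines for 3 members (Ctsc, Cd63, Glb1), where 17.9% of all genes did so, and below all of them for 9 members, where 20.6% did.

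Of those 9 members, 8 were pump proteins. In all, 14 of the 15 pump proteins had a log2 fold below 0, with a median of -0.41 against 0.01 over all genes tested, and 6 had an unadjusted p under 0.05. In the same comparison all 7 oligodendrocyte precursor markers were below 0 (median -3.10), as were all 6 oligodendrocyte markers tested (-3.54). Neuron markers had 5 below and 2 above 0 (-2.17), and neural tumour markers 6 below and 4 above (-0.09). The part of these cell states in the pump values was not tested. All 5 V0 subunits were below 0 in each of the 5 fits that left out 1 line, and 7 or 8 of the 8 V1 subunits were. Atp6v0d1, the stalk-like subunit that couples the ring to V1, had 90.0 and 96.5 CPM in Ras lines and 159, 140 and 151 CPM in PDGF lines. The gap between the groups exceeded the spread within either, with a log2 fold of -0.69 ± 0.16 (edgeR adjusted p = 0.222, and 0.00115 to 0.854 over the alternatives, lowest by DESeq2). Atp6v0a1 had 105 and 147 CPM in Ras lines and 216, 206 and 211 CPM in PDGF lines, with -0.74 ± 0.21 (edgeR adjusted p = 0.237).

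The remaining pump proteins with the smallest p followed the same direction. Atp6v1b2, the non-catalytic nucleotide-binding subunit, had 101 and 140 CPM in Ras lines and 206, 168 and 193 CPM in PDGF lines, a log2 fold of -0.65 ± 0.22. Atp6v1f, a small subunit of the rotor, had 59.6 and 63.3 CPM in Ras lines and 80.2, 84.8 and 83.4 CPM in PDGF lines, with -0.43 ± 0.16. Neither gene overlapped between the groups. Atp6v0e had 70.9 and 58.2 CPM in Ras lines and 90.9, 161 and 101 CPM in PDGF lines, with -0.86 ± 0.32. For Atp6v0b the values were 89.0 and 112 CPM in Ras lines and 150, 130 and 147 CPM in PDGF lines, with -0.50 ± 0.19. The edgeR adjusted p-values of these 4 genes ran from 0.273 to 0.299. Atp6v1c1, a stator subunit, was the exception, with 91.6 and 66.1 CPM in Ras lines, among the 54.7, 110 and 61.9 CPM of PDGF lines.

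**Figure D4:**
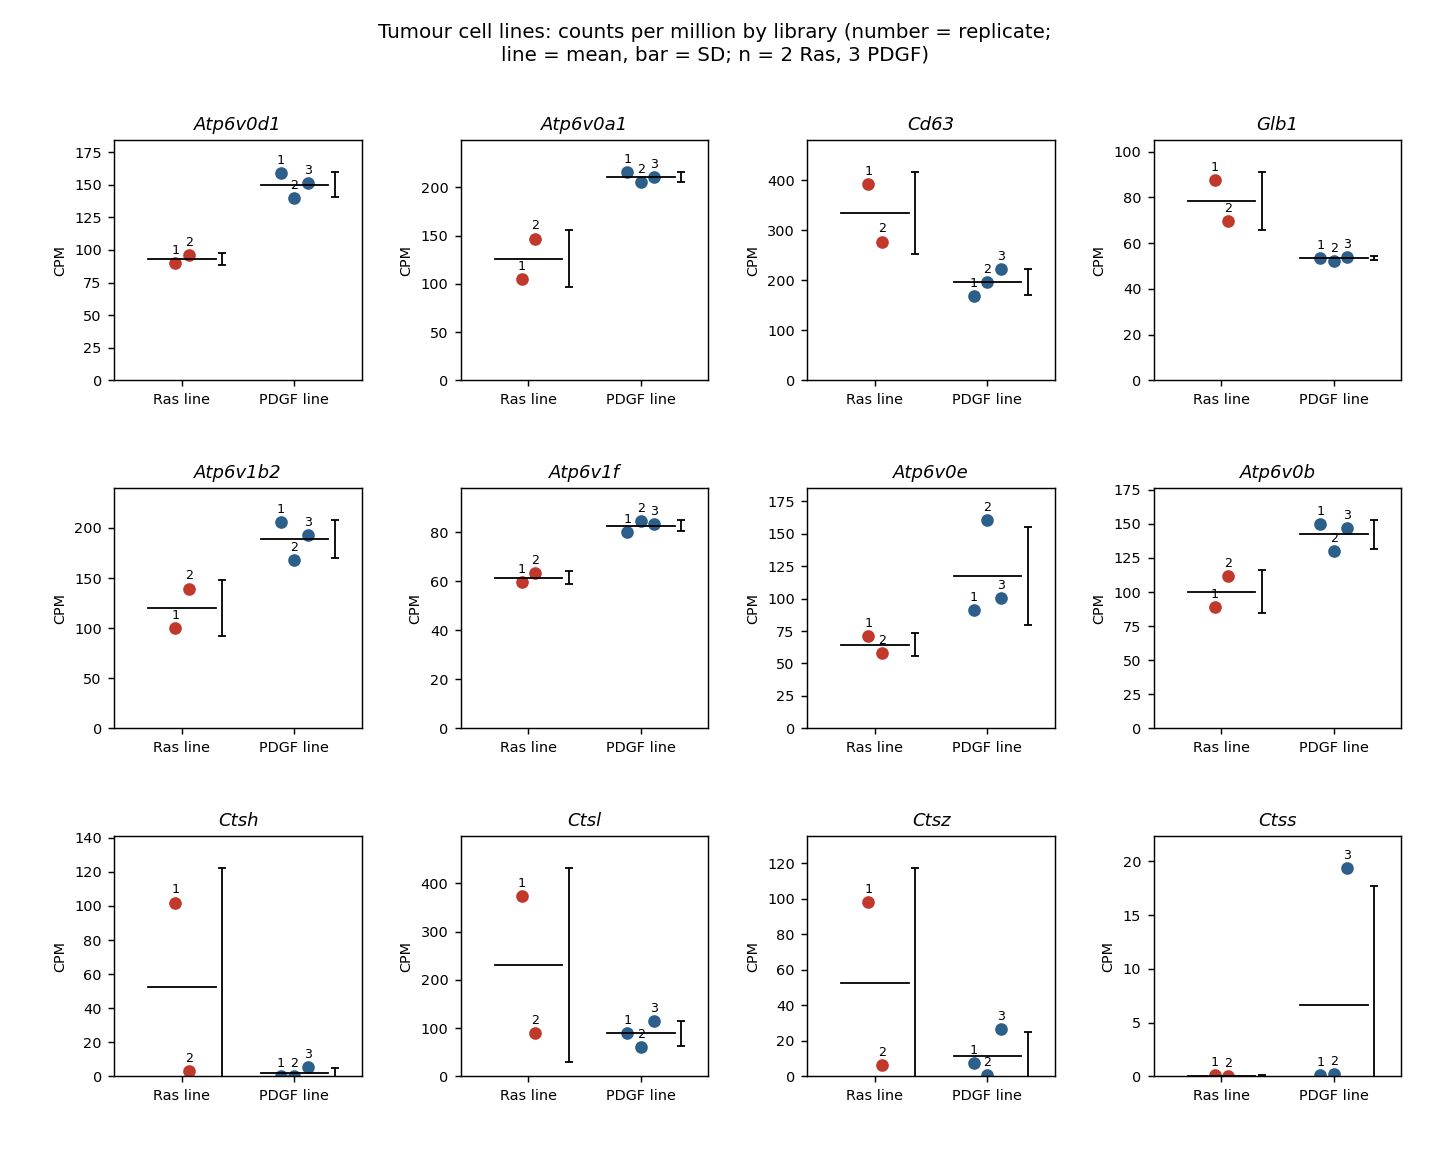
CPM in tumour lines, Ras (n = 2) left and PDGF (n = 3) right, for the 8 members with the smallest p and for Ctsh, Ctsl, Ctsz and Ctss; points are libraries with their replicate number, lines means and bars SD (bars cut at 0). The 6 pump proteins shown are lower in both Ras lines, whereas Ctsh, Ctsl and Ctsz are high in Ras line 1 alone and Ctss in PDGF line 3 alone.

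Cysteine cathepsins had log2 folds above 0 for all 8 tested, but this rested on Ras line 1: without it 4 were above and 4 below 0, and the 3 other proteases were all below 0. Ctsh had 102 and 3.38 CPM in Ras lines and 0.29, 0.24 and 5.63 CPM in PDGF lines. Ctsl had 374 and 89.3 CPM in Ras lines and 90.6, 61.7 and 115 CPM in PDGF lines, and Ctsz 98.5 and 6.27 CPM against 7.27, 0.70 and 26.8 CPM. In each case Ras line 1 was far above the rest and Ras line 2 lay among the PDGF lines. Grn showed the same shape, at 325 and 107 CPM in Ras lines and 81.0, 115 and 90.9 CPM in PDGF lines. Ras line 1 also had the lowest sum of neural tumour markers, at 1440 CPM, against 6119 CPM in Ras line 2 and 3983 to 5150 CPM in PDGF lines, and its part in the cathepsin values was not tested.

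Cd63 and Glb1 lay above all PDGF lines in both Ras lines, as did Ctsc. Cd63 had 393 and 277 CPM in Ras lines and 169, 197 and 222 CPM in PDGF lines, a log2 fold of 0.77 ± 0.23 (edgeR adjusted p = 0.245). Glb1, the lysosomal beta-galactosidase, had 87.5 and 69.5 CPM in Ras lines and a narrow 53.6, 52.3 and 54.0 CPM in PDGF lines, with 0.56 ± 0.18 (edgeR adjusted p = 0.262). Ctsc was low throughout, at 15.2 and 33.3 CPM in Ras lines and 4.16, 0.12 and 3.11 CPM in PDGF lines. With Ras line 2 left out, 2111 genes were called, among them Ctsl, Grn and Atp6v0a1; the lone Ras line is then assumed to vary like the PDGF lines.

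**Figure D5:**
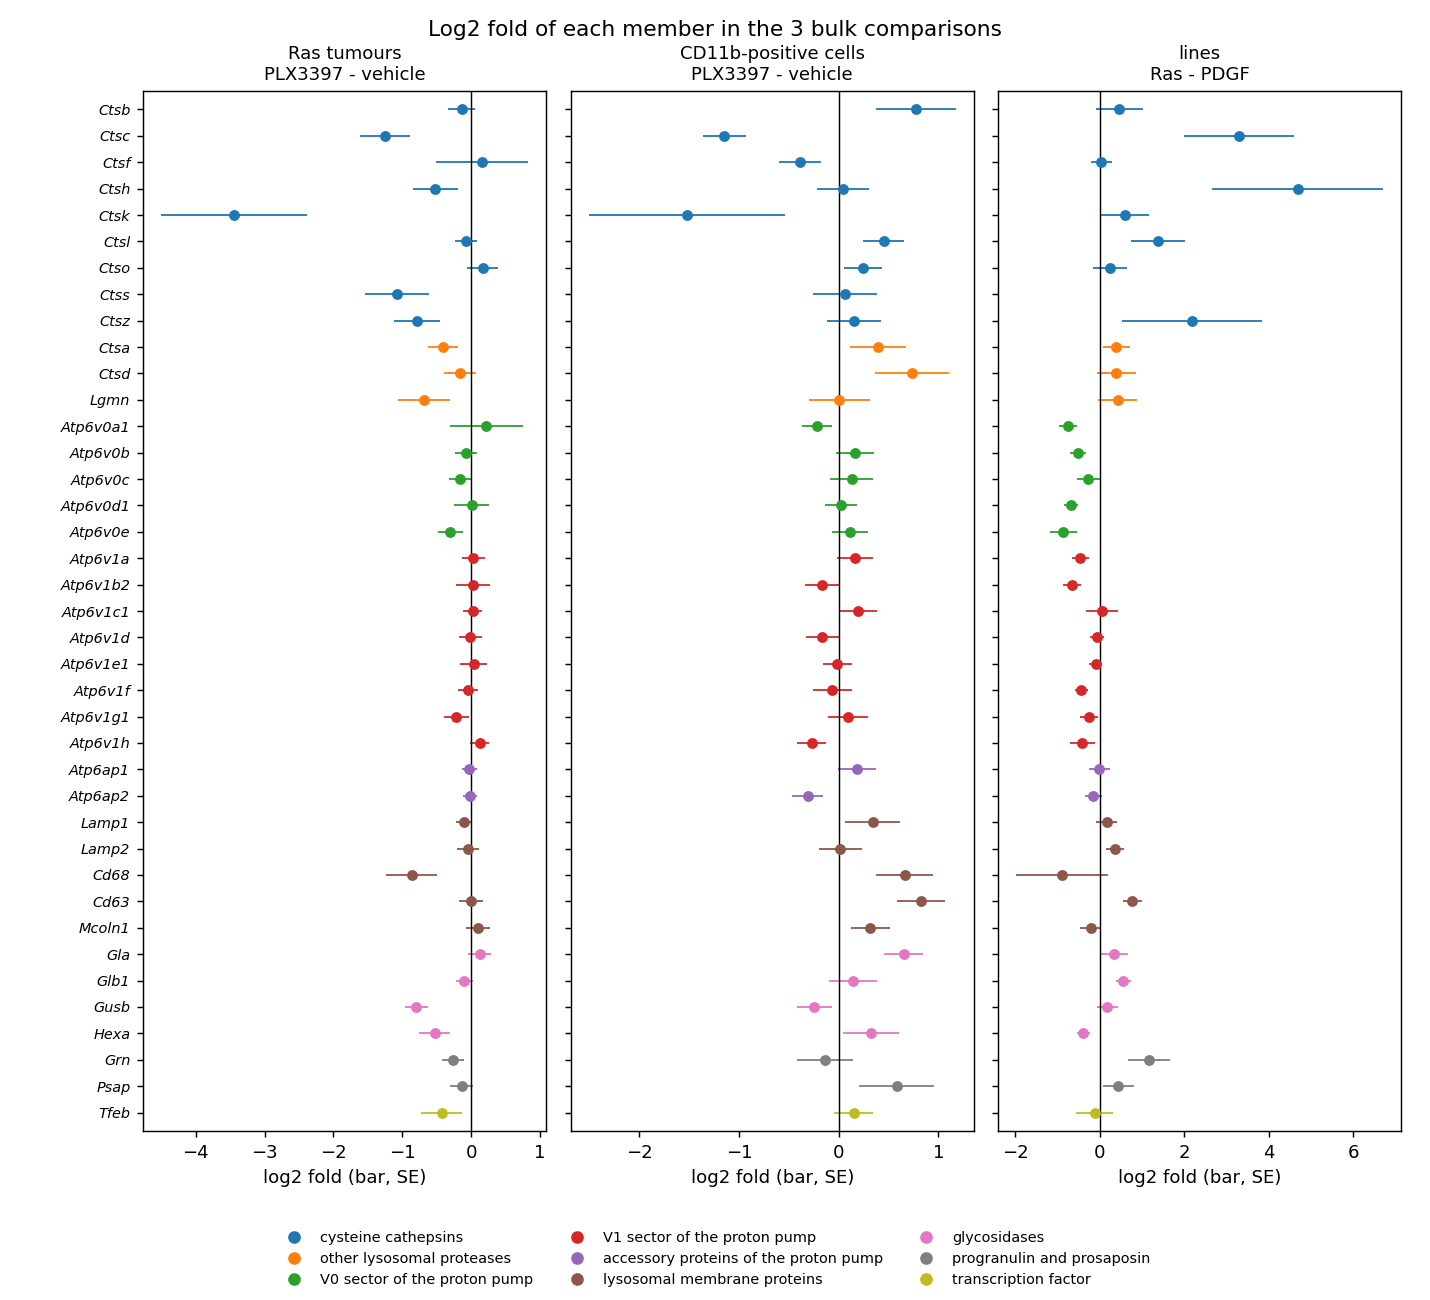
Log2 fold of each member in the 3 bulk comparisons (PLX3397 minus vehicle in Ras tumours and in CD11b-positive cells, Ras minus PDGF in lines), coloured by role, with SE bars and a separate horizontal scale per panel; Ctss was not tested in the lines. Pump proteins sit near 0 in both PLX3397 panels and below 0 in 14 of 15 cases in the lines.

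The 3 bulk comparisons share no library. Ctsc was lower under PLX3397 in each of 4 tumours and in both CD11b libraries than in any vehicle library of the same table. It was not called in either comparison by edgeR with TMM scaling and the low-count filter, and was called in CD11b-positive cells by DESeq2 (adjusted p = 1.62e-05), by edgeR without the filter (adjusted p = 0.022) and by edgeR with RLE size factors (adjusted p = 0.0471). Cd68 lay on opposite sides, at -0.86 in whole Ras tumours and 0.66 in CD11b-positive cells; driver, treatment time, sorting and library kit all differ between those tables, and the difference was not tested.

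Other lysosomal genes were counted from fixed lists. In Ras tumours edgeR called none of 71 tested, with 5 at an unadjusted p under 0.05, all lower, where 3.53% of all genes had such a p, and DESeq2 called 4 (Acp5, Man2b1, Nagpa, Tfec), of 169 genes in all. The 26 other hydrolases tested had 22 log2 folds below 0, with a median of -0.16; Man2b1, lysosomal alpha-mannosidase, had 80.0, 96.5, 55.7 and 56.9 CPM in PLX3397 tumours and 184, 162, 147 and 120 CPM in vehicle tumours, without overlap (edgeR adjusted p = 0.414). Laptm5, a lysosomal membrane protein of blood cells, had 165, 253, 103 and 105 CPM in PLX3397 tumours and 393, 304, 326 and 344 CPM in vehicle tumours (edgeR adjusted p = 0.606). In 10x, 10 of 26 hydrolases were at least 4 times as high in macrophage as in neural clusters, among them Man2b1 at 261 against 19.8.

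The pump has tissue-specific isoforms outside the members, which serve cells such as neurons and osteoclasts. In CD11b-positive cells edgeR called 5 of the 73 other lysosomal genes tested, all higher under PLX3397, a share near the 6.35% of all genes called. Atp6v0d2, the V0 d isoform of osteoclasts and some macrophages, rose to 159 and 137 CPM in PLX3397 cells, against 25.7 CPM in vehicle cells, a log2 fold of 2.52 ± 0.19 (edgeR adjusted p = 0.0305). In 10x it had 27.3 in macrophage and 0.14 in neural clusters, and within macrophages 32.8 in microglia-like and 5.96 in monocyte-derived cells. The 84 neutrophil-like cells had 39.8 (19.1 to 73.2) from 10 UMIs, an interval that overlaps the microglia-like value. The common d isoform Atp6v0d1 had 190 and 172 CPM in PLX3397 cells and 178 CPM in vehicle cells.

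The other 4 called genes were higher in neural than in macrophage clusters of 10x. Igf2r, the large mannose 6-phosphate receptor, had 124 and 133 CPM in PLX3397 cells against 35.5 CPM in vehicle cells (log2 fold 1.86, edgeR adjusted p = 0.0305), and 3.39 in macrophage and 15.2 in neural clusters. Atp6v0e2 had 13.1 and 13.2 CPM in PLX3397 cells against 3.07 CPM in vehicle cells (log2 fold 2.10, edgeR adjusted p = 0.0346), and 10.5 in macrophage and 98.6 in neural clusters. Laptm4b (53.3 and 48.4 CPM under PLX3397, 25.0 CPM under vehicle) and Rragd, a Rag GTPase that recruits mTORC1 to lysosomes (16.3 and 12 CPM under PLX3397, 3.81 CPM under vehicle), had 14.8 and 5.39 in macrophage and 58.0 and 44.6 in neural clusters. In neutrophil-like cells Igf2r had 99.5 and Rragd 59.7, above their neural levels, while Atp6v0e2 had 19.9 and Laptm4b 35.8. Astrocyte, neural tumour, fibroblast, endothelial and pericyte markers had higher sums in the same PLX3397 libraries, and 8 of 10 neutrophil markers were higher there, as given above; their part in these 4 genes was not tested.

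In the lines edgeR called none of 67 other lysosomal genes, with 10 at an unadjusted p under 0.05, where 16.3% of all genes had such a p, and DESeq2 called 5 (Atp6v0a4, Atp6v1g2, Gnptg, Igf2r, Tcirg1), of 2110 genes in all. Neural isoforms of the pump lay lower in Ras lines along with the common subunits: Atp6v1g2 had 8.21 and 13.8 CPM in Ras lines and 34.6, 40.6 and 49.6 CPM in PDGF lines, and Atp6v0e2 104 and 184 CPM in Ras lines and 260, 296 and 296 CPM in PDGF lines. Tcirg1, the a3 isoform used by osteoclasts and phagocytes, lay higher, with 89.1 and 24.6 CPM in Ras lines and 15.1, 13.2 and 16.2 CPM in PDGF lines (log2 fold 1.94 ± 0.56, edgeR adjusted p = 0.239).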

How the data were processed

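The authors deposited raw counts per gene symbol for the 16 bulk libraries and counts of unique molecular identifiers per gene and barcode for the 2 single-cell libraries. Per the submitters' processing notes, the tools were STAR 2.6.1e, Cell Ranger, featureCounts 1.6.2, cutadapt 1.9.1, Trim Galore 0.4.2 and FastQC 0.11.7, on GRCm38 (mm10); their roles and whether counting used the strand are not given in the sources used here. In both the tumour and the line file, 27 entries with names turned into dates were left out, as was 1 unnamed entry of the CD11b file; 5 line columns that match no sample were not used. In the tumours and lines 62.8% to 69.4% of counts from 1 to 10 were even, against 39.9% to 41.9% in CD11b-positive cells, and the cause was not tested.

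The members and lists were chosen with earlier results of these data known. Each bulk comparison was fitted alone over its whole table with edgeR 4.0.16 (quasi-likelihood, TMM, default low-count filter, robust) in R 4.3.3, with Benjamini-Hochberg adjustment over all genes tested and a threshold of 0.05; DESeq2 1.42.0, other scalings, no filter and leaving out libraries were alternatives. The fits were tested on simulated counts. Values in every library were printed for the 8 members with the smallest p per comparison, and up to 3 genes per other lysosomal list; further members were named after their values were seen. Groups were called non-overlapping where every CPM of one lay beyond every CPM of the other.

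Single cells were filtered (10x at least 500 UMIs and 300 genes, Drop-seq at least 300 and 200, at most 20% mitochondrial UMIs) and clustered in scanpy 1.11.5 (2000 variable genes, 30 components, 15 neighbours, Leiden resolution 0.5). No doublet caller was run, and doublets were not removed. A cluster counted as neural only if it was unnamed or carried the name of a neural class (1 was named oligodendrocyte precursor-like), with a median UMI count that, multiplied by 3, reached its library's median; markers counted at a 2-fold excess over macrophage clusters.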

Additional observations from a re-analysis of the deposited data

Results flagged for a closer look

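In groups of 4 libraries, 78 member-by-group sets of Ras tumour values were checked for a library that stands apart from the other 3 by a Dixon test, which chance passes in about 1 in 20 sets, and 4 did. Atp6v1b2 was at 342 CPM in PLX3397 tumour 1, against 165 to 183 CPM in the other PLX3397 tumours. Atp6ap2 was at 155 CPM in the same tumour, against 131 to 133 CPM; this library and vehicle tumour 2 had the highest neuron marker sums. Cd68 was at 167 CPM in vehicle tumour 1, against 96.6 to 105 CPM in the other vehicle tumours; that library also had the highest pan-myeloid sum. Ctso, a cysteine cathepsin, was low at 19.1 CPM in vehicle tumour 4, against 26.9 to 28.2 CPM.

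Cd68 had a log2 fold of -0.86 for PLX3397 over vehicle in Ras tumours and of 0.66 in CD11b-positive cells of PDGFB tumours, with no overlap between the treatments in either table. The difference between these effects was not tested, and the tables differ in driver, treatment time, sorting and library kit.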

How the results depend on the processing

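Among the members with the smallest p per comparison, 236 alternative values kept their direction and, where tested, their side of the threshold. A further 12 kept their direction and newly passed it, and none of these values reversed. Direction means the sign alone: Ctsk in Ras tumours counted as kept although it went from -3.44 to -0.18. Members named for other reasons were not counted. Some of them did reverse: in the lines without Ras line 1, some cysteine cathepsins and the other proteases fell below 0. Values of 1 CD11b PLX3397 library against the vehicle library had no test and were judged by the fold alone. In Ras tumours DESeq2 called 169 genes and 2 members, and either no low-count filter or leaving out PLX3397 tumour 1 and vehicle tumour 2 (chosen after seeing the data) gave 1 gene and 0 members; leaving out each replicate gave 0 to 0 genes and 0 to 0 members. In CD11b-positive cells DESeq2 called 1968 genes and 4 members, no filter 1907 genes and 1 member (Ctsc), and RLE size factors also 1 member. In the lines DESeq2 called 2110 genes and 3 members, no filter 1 gene, and leaving out each replicate 0 to 2111 genes and 0 to 3 members, the highest without Ras line 2. A replicate block called 0 genes and 0 members in Ras tumours and in lines, and changed no call. Same-numbered Ras tumours did not all deviate together (correlations 0.01, 0.14, -0.45 and 0.55), so the numbers were not taken as pairs. These numbers follow the sample titles. By column name PLX3397 tumour 1 and vehicle tumour 3 share a number (correlation 0.60), and no fit took them as a pair. The values for the lines (-0.16 and -0.12) cannot decide on pairing, because deviations of 2 Ras lines from their mean mirror each other. No paired analysis was possible in the CD11b-positive cells because they share 1 replicate number. With library totals in place of TMM scaling, the median of all genes shifted by at most 0.07 on the log2 scale. The enriched members numbered 13 of 39 with stricter cell filters or with means over cells, and 14 with finer clusters. Single-cell depth limits Ctsk and Atp6v0c most, and in Drop-seq also Ctso and Tfeb. The CD11b comparison is limited by its 1 vehicle library.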
